A study of Mus musculus with 3 samples.

Results

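The genes of the blood-brain barrier described here, Cldn5, Ocln, Tjp1, Slco1a4, Slco1c1, Mfsd2a, Abcb1a, Abcg2 and Pglyrp1, 9 in all, were followed through the cell classes of the mouse nucleus accumbens. They were chosen by symbol as a fixed list, and all 9 were found once each among the 28001 features measured. Endothelial cells were chosen by a separate set of genes, Flt1, Ly6c1 and Pecam1, so the 9 genes did not decide which cells were endothelial. The cells came from Thy1::ChR2 mice, a transgenic strain carrying the light-gated channel channelrhodopsin, and were labelled with FLiCRE, a calcium and light recorder, while ChR2 was stimulated in the nucleus accumbens. Tissue was a coronal brain dissection of 400 um. There was 1 group of 3 libraries, made with the 10x Genomics 3′ v2 kit, and no unstimulated or unlabelled group was analysed here, so the comparisons set cell classes of the same libraries side by side. The labels give no age or sex and do not say which neurons the Thy1 promoter drove ChR2 in, or whether the libraries came from separate animals; p-values therefore measure the spread between these libraries, which may be technical.

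Brain capillaries differ from those of most organs in that their endothelial cells are sealed by continuous tight junctions, carry few transport vesicles and depend on carrier proteins for nearly everything that crosses. Tight junction proteins close the gap between neighbouring cells, solute carriers bring selected molecules in, and ATP-driven pumps on the blood side return lipophilic drugs to the blood. Pericytes, a mural cell, and the endfeet of astrocytes surround the vessel and help keep this state, in which Wnt/beta-catenin signalling, read out by TCF/LEF factors, takes part.

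Because the 9 genes were high in the same cells, the 250 bases before the annotated start of 4 of them are shown, 1 junction gene and the 3 carriers that the results turn on. The sequences are from RefSeq on GRCm38.p6, the same assembly as the mm10 build named in the submitters' processing notes, and are written 5′ to 3′ on the strand of the gene. Capitals mark a match to 1 of 3 searched cores, each sought on both strands: CTTTGA or TCAAAG for TCF/LEF, CCGGAA or TTCCGG for ETS, and AACAAT or ATTGTT for SOX. The windows are chr16:18776597-18776846 on the plus strand for Cldn5, chr6:141856221-141856470 on the minus strand for Slco1a4, chr6:141524104-141524353 on the plus strand for Slco1c1 and chr4:122961189-122961438 on the minus strand for Mfsd2a.
Cldn5: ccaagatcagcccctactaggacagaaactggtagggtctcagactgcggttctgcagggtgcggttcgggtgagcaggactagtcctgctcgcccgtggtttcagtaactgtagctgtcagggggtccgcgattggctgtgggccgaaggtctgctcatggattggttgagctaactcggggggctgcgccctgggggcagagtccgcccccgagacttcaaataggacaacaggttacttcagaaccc
Slco1a4: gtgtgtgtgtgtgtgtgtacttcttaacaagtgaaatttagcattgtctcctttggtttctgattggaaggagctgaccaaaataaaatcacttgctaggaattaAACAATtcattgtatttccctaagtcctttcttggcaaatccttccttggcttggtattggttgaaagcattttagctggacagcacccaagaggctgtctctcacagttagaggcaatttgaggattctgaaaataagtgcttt
Slco1c1: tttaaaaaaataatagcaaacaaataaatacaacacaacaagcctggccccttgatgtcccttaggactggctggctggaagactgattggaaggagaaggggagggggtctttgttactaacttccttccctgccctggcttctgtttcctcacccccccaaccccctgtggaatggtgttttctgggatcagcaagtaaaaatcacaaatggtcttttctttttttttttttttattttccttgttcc
Mfsd2a: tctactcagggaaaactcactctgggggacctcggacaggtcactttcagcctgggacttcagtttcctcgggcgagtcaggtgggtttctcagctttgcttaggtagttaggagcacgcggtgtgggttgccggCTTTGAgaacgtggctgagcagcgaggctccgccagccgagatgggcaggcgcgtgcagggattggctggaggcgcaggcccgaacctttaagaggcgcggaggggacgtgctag
The TCF/LEF core stood in the window of Mfsd2a, 115 bases before its start, and of Abcb1a, which held 2 matches. The Abcb1a window, chr5:8566841-8567090, precedes a RefSeq start that lies far upstream of the gene start in GENCODE M21, chr5:8660077. The TCF/LEF core was found in 13.8% of 32851 promoter windows of the same length. The SOX core was found in Slco1a4, 145 bases before its start, and in 9.42% of all windows. The ETS core was found in 1 of the windows of Ocln and in 12.03% of all windows. No core was found in the windows of Cldn5, Slco1c1, Tjp1, Abcg2 or Pglyrp1, which says only that these letters are not in these windows. All 9 genes matched the RefSeq table, with 12 windows in all, since some genes have several starts.

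In GENCODE M21 on GRCm38 the genes lie at chr16:18776847-18778262 (Cldn5), chr13:100496507-100552718 (Ocln), chr7:65296165-65527781 (Tjp1), chr6:141805440-141856199 (Slco1a4), chr6:141524368-141570177 (Slco1c1), chr4:122946850-122961188 (Mfsd2a), chr5:8660077-8748575 (Abcb1a), chr6:58584523-58695676 (Abcg2) and chr7:18871331-18890459 (Pglyrp1). The organic anion carriers Slco1c1 and Slco1a4 are neighbours on chromosome 6, with 235262 bases between them. Of the 9 genes, 7 overlap no other annotated gene. Tjp1 overlaps 3 small annotated features and Abcb1a overlaps 2, and since no source used here says whether strand was used in counting, their reads cannot be told apart from those of the overlapping features.

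The libraries held 2717, 6627 and 2281 deposited cells, of which 2306, 5783 and 1834 were kept, with a median of 985.5, 2084 and 2674 UMIs (molecular tags, each counting 1 RNA molecule) per cell. Pairs of libraries shared 7 to 22 cell barcodes. A class was given to a cell with at least 3 UMIs summed over the markers of 1 class and fewer for every other class, which placed 6421 of 9923 cells. The endothelial class held 407 cells (130, 198 and 79 in libraries 1 to 3) after 35 cells that also passed another gate, 16 of them the mural one, were set aside. Its median depth was 978, 1372.5 and 2411 UMIs. A panel of 8 other endothelial genes (Cdh5, Tek, Emcn, Tie1, Kdr, Eng, Egfl7 and Ptprb) was read as a check of the class: all 8 were detected, and they summed to 3870, 4229 and 4611 CPM (UMIs of the gene per 1000000 UMIs of the class in that library), against 400.7 to 524.9 CPM in mural cells and 13.5 to 42.7 CPM in astrocytes. Markers of other cells were read in the endothelial class as well. The 3 mural markers summed to 18.2 to 38.1 CPM, against 11385 to 15585 CPM in mural cells, and the 3 astrocyte markers summed to 17.3 to 78.7 CPM. The 3 neuron markers summed to 30.3, 441.7 and 112.4 CPM, highest in library 2, and the same order was seen in astrocytes (24.8, 341.7 and 125.9 CPM). The 3 red blood cell markers summed to 30.3, 2236 and 0 CPM, and 870 of the 881 hemoglobin UMIs of library 2 lay in 1 cell. Their part in the levels below was not tested.

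**Figure D1:**
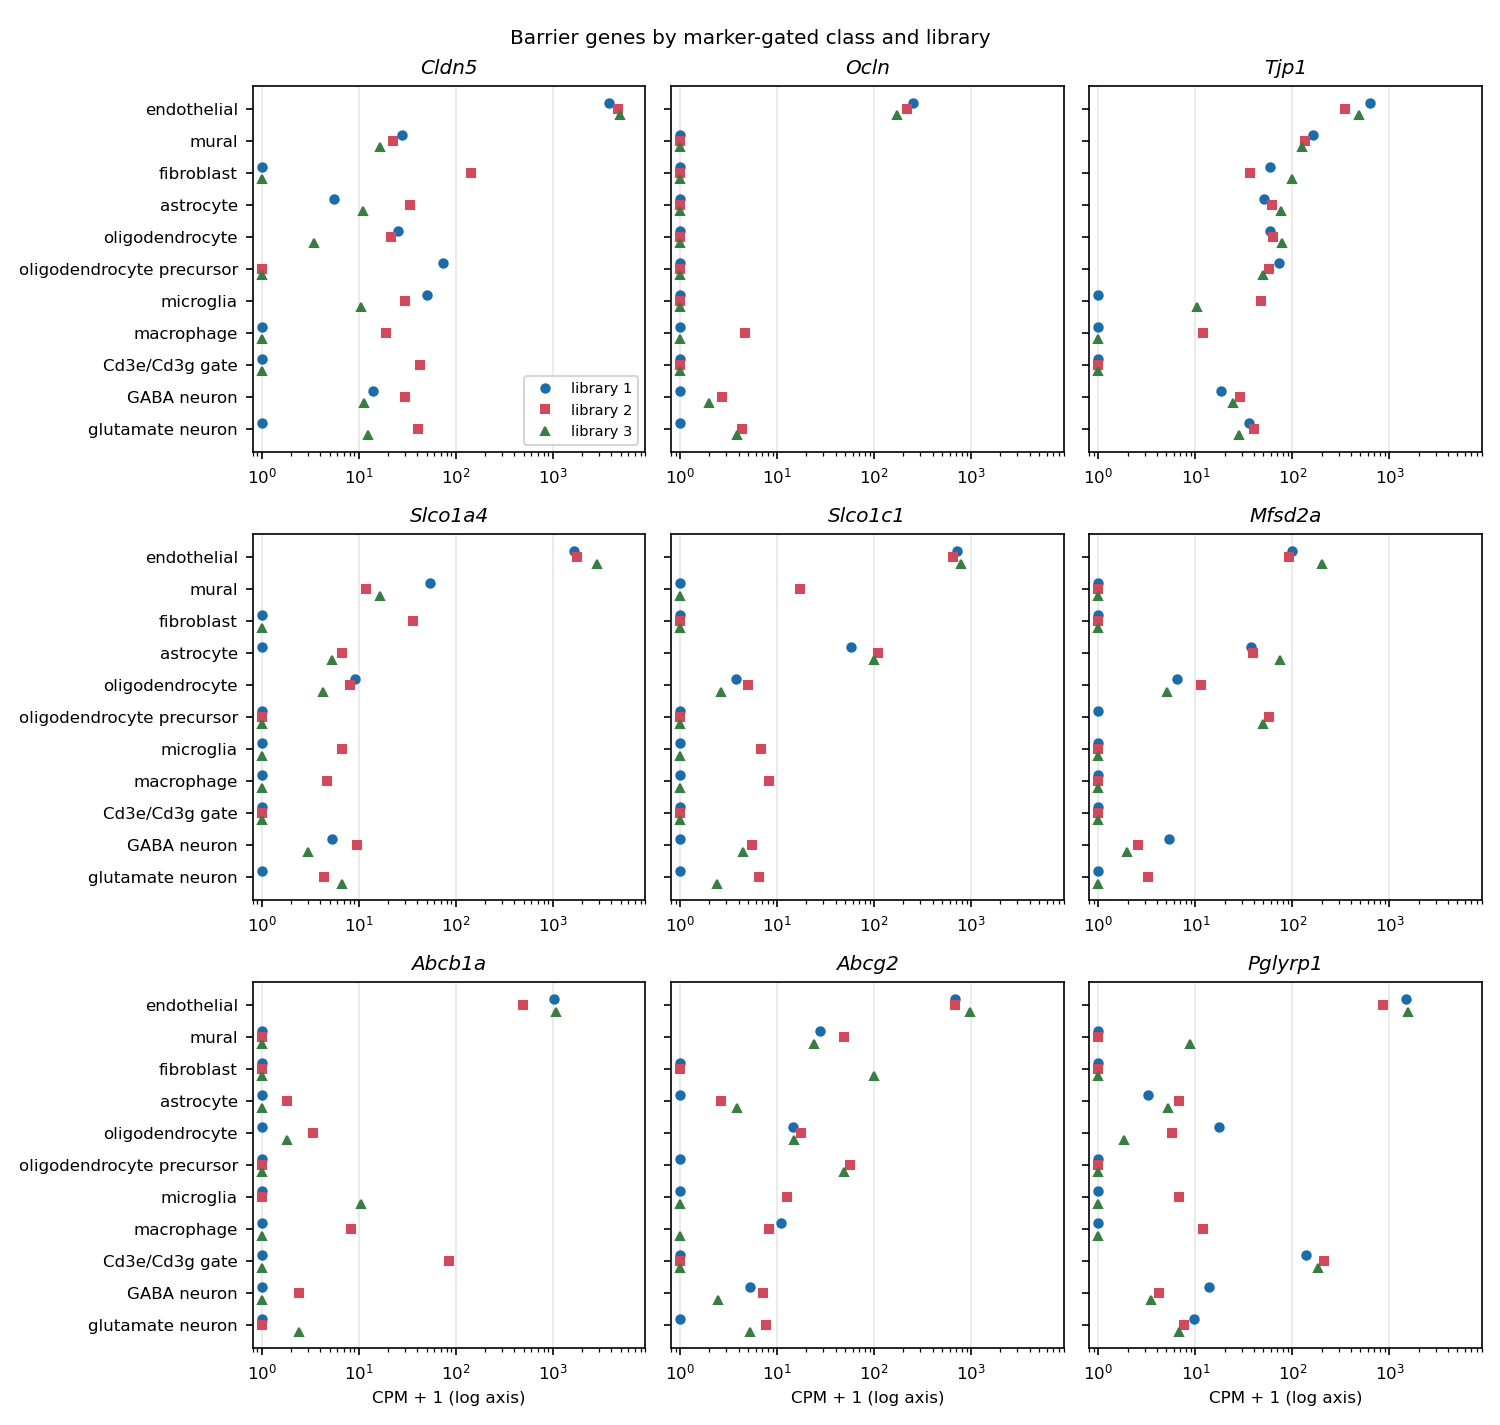
Level of each of the 9 genes in 11 marker-gated classes, 1 point per library (CPM + 1, log axis). The endothelial points lie to the right of every other class in all 9 panels. Slco1c1 and Mfsd2a are also seen in astrocytes, Pglyrp1 in the cells gated on Cd3e and Cd3g, and Tjp1 in most classes.

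Among the junction genes, Cldn5, which encodes claudin-5, the main sealing claudin of brain endothelium, was measured at 3761, 4709 and 4883 CPM in the endothelial cells of libraries 1 to 3 (4451 ± 604 CPM, SD, n = 3). In mural cells it was at 26.7, 21.4 and 15.4 CPM and in astrocytes at 4.51, 32.9 and 9.90 CPM. The endothelial libraries were all far above the others. The next highest mean was in the 32 fibroblasts, at 0, 141.5 and 0 CPM in libraries 1 to 3, from 4 UMIs. In astrocytes Cldn5 was highest in library 2, where the 3 endothelial gate genes were highest as well (6.77, 33.7 and 22.6 CPM). Cldn5 was 7.79 ± 0.24 higher on the log2 scale (SE) than in mural cells and 7.94 ± 0.47 higher than in astrocytes. It passed the low-count filter only through the endothelial libraries, so its entry into the test depended on its level there. A difference of this kind is given here and below with its SE, as a description, and an adjusted p is given for the other differences and where a call was lost. The value against mural cells depended on the gate. With a gate of 2 UMIs of Cdh5, Tek and Emcn in place of 3 UMIs of Flt1, Ly6c1 and Pecam1, it was 4.497 and lost the call (edgeR adjusted p = 0.0758).

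Ocln, which encodes occludin, a membrane protein of the same junction, was at 248.3, 218.3 and 172.8 CPM in endothelial cells (213.2 ± 38.0 CPM). It had 167 UMIs there and 0 in mural cells, astrocytes, oligodendrocytes, oligodendrocyte precursors, microglia, fibroblasts and the cells gated on Cd3e and Cd3g. Against a floor of 3 counts over each class, Ocln was at least 24.9-fold higher than in mural cells, at least 166.7-fold higher than in astrocytes and at least 200.1-fold higher than in oligodendrocytes. The smallest classes allow less: the bound was 3.94-fold for 32 fibroblasts. GABA neurons had 14 UMIs of Ocln in 3064 cells and macrophages had 1.

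Tjp1, which encodes ZO-1, the scaffold that ties junction proteins to actin, was measured in 10 of the 11 classes. It was at 629.9, 347.8 and 484.0 CPM in endothelial cells, at 160.3, 133.9 and 123.5 CPM in mural cells, at 49.7, 60.8 and 75.0 CPM in astrocytes and at 57.3, 61.7 and 76.8 CPM in oligodendrocytes. The endothelial libraries did not overlap those of any other class, and mural cells came next without overlapping astrocytes or oligodendrocytes, which overlapped each other. Endothelial Tjp1 was 1.67 ± 0.24 higher on the log2 scale than in mural cells (3.18-fold, edgeR adjusted p = 5.94e-05) and 2.72 ± 0.28 higher than in astrocytes (6.60-fold, edgeR adjusted p = 8.23e-08). Astrocytes and oligodendrocytes differed by -0.11 ± 0.25 in Tjp1, with an interval of 2 SE from -0.62 to 0.40 (edgeR adjusted p = 0.758). Only 25.8% of all Tjp1 UMIs in the data lay in the endothelial class, the lowest share of the 9 genes.

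Of the carriers, Slco1a4, an organic anion transporter also known as Oatp1a4, was at 1641, 1757 and 2830 CPM in endothelial cells (2076 ± 656 CPM). It stood at 53.4, 10.7 and 15.4 CPM in mural cells, from 6 UMIs, and at 0, 5.75 and 4.24 CPM in astrocytes, from 10 UMIs. Endothelial levels were above all others in each library, and library 3 was the highest. Slco1a4 was 6.84 ± 0.35 higher on the log2 scale than in mural cells and 8.75 ± 0.46 higher than in astrocytes. It belongs to a family of closely related genes, and reads shared with a relative would make this level uncertain.

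Slco1c1, or Oatp1c1, which carries thyroxine into the brain, was at 714.7, 649.9 and 777.8 CPM in endothelial cells (714.1 ± 64.0 CPM), the least variable of the 9 genes relative to its mean. Astrocytes came next, at 56.4, 107.6 and 99.0 CPM (87.7 ± 27.4 CPM), and no other class was above 5.36 CPM on average. The endothelial and astrocyte libraries did not overlap, and neither did the astrocytes and oligodendrocytes, where Slco1c1 was at 2.73, 3.95 and 1.65 CPM. Endothelial Slco1c1 was 2.84 ± 0.28 higher than in astrocytes on the log2 scale (7.18-fold, edgeR adjusted p = 3.68e-08), and astrocyte Slco1c1 was 4.98 ± 0.40 higher than in oligodendrocytes (31.6-fold). The comparison of astrocytes with oligodendrocytes was added after these levels had been seen, and Slco1c1 and Mfsd2a passed its filter only through the astrocytes, so their values there are a description. In astrocytes Slco1c1 had 226 UMIs, Cldn5 49 and Slco1a4 10. In endothelial cells the counts of the same genes were 554, 3606 and 1618. The source of the astrocyte UMIs was not tested.

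Mfsd2a encodes the carrier of lysophosphatidylcholine-bound omega-3 fatty acids, also known for keeping vesicle transport across the barrier low. It was at 96.9, 91.4 and 198.8 CPM in endothelial cells (129.0 ± 60.5 CPM) and at 36.1, 37.8 and 73.6 CPM in astrocytes (49.2 ± 21.2 CPM). In each library the endothelial level was above the astrocyte level, library 3 was the highest in both classes, and the 2 sets of 3 values did not overlap. The difference, 1.19 ± 0.30 on the log2 scale (2.28-fold, edgeR adjusted p = 0.00258), was the smallest that any of the 9 genes showed against the 5 classes tested. It ranged from 0.999 to 1.33 over the alternatives tried, with an adjusted p of at most 0.0446. Astrocyte Mfsd2a was in turn 2.77 ± 0.41 higher than in oligodendrocytes (6.81-fold), where it was at 5.46, 10.3 and 4.13 CPM; this value was 3.69 without library 2 and 2.07 without library 3. Mfsd2a had 0 UMIs in mural cells (at least 14.6-fold lower than in endothelial cells), microglia (at least 12.4-fold) and macrophages (at least 17.5-fold). The 42 oligodendrocyte precursors had 5 UMIs, at 0, 55.7 and 48.2 CPM in libraries 1 to 3. Against microglia the call was lost without library 3 (7.05 on the log2 scale, edgeR adjusted p = 0.0685). More of its UMIs lay in astrocytes (114) than in endothelial cells (98), which were fewer.

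Of the efflux pumps, Abcb1a, which encodes the P-glycoprotein of mouse brain vessels, was at 1036, 484.9 and 1085 CPM in endothelial cells (868.4 ± 333.0 CPM), lowest in library 2. It had 0 UMIs in mural cells, fibroblasts and oligodendrocyte precursors, and was at least 91.4-fold higher in endothelial than in mural cells. The 21 cells gated on Cd3e and Cd3g had 2 UMIs, both in library 2, where they gave 84.2 CPM. Astrocytes had 1 UMI of Abcb1a in 782 cells, which gives an endothelial ratio of 1836 with a counting interval from 328.3 to 72632. Abcb1b, its near relative, was at 10.6 ± 12.4 CPM in the endothelial class, and reads common to both genes would make both levels uncertain.

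Abcg2, which encodes the breast cancer resistance protein, was at 672.3, 675.3 and 963.6 CPM in endothelial cells (770.4 ± 167.4 CPM). Mural cells had 26.7, 48.2 and 23.2 CPM, oligodendrocytes 13.6, 16.6 and 14.0 CPM, and astrocytes 0, 1.64 and 2.83 CPM. Oligodendrocyte precursors had 0, 55.7 and 48.2 CPM, from 5 UMIs in 42 cells. All endothelial libraries were above all others, and the oligodendrocyte values were above the astrocyte values in each library. Abcg2 was 4.35 ± 0.30 higher on the log2 scale in endothelial than in mural cells. Between the glia, Abcg2 was lower in astrocytes than in oligodendrocytes, with a log2 difference of -3.10 ± 0.67. It passed the filter there only through the oligodendrocytes. It did not pass without library 2 or with only cells of at least 1000 UMIs. Of the 5 genes tested between the glia, Slco1c1 and Mfsd2a were called higher in astrocytes, Abcg2 lower, and Tjp1 and Cldn5 were not called; the 3 called genes are those that passed through 1 class only. Over all 8468 genes tested between these classes, 24.4% were higher and 20.9% lower in astrocytes.

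Pglyrp1 encodes a peptidoglycan recognition protein known from neutrophil granules, which is also a transcript of brain endothelium. It was at 1466, 865.6 and 1538 CPM in endothelial cells (1290 ± 369 CPM), lowest in library 2. Outside this class its mean was at most 7.31 CPM except in the 21 cells gated on Cd3e and Cd3g, where 7 UMIs gave 138.0, 210.4 and 183.4 CPM. Those 7 UMIs lay in 5 of the 21 cells (23.8%, exact 95% binomial interval from 8.22% to 47.2%, counting error only), and the 21 cells held 0 UMIs of the 8 other endothelial genes. Of the other barrier genes, the 21 cells held 1 UMI of Cldn5 and 2 of Abcb1a, all in library 2. The gate genes Flt1, Ly6c1 and Pecam1 summed to 138.0, 42.1 and 0 CPM there, with 2 of the 3 at 0, and their part was not tested. Pglyrp1 was 8.36 ± 0.43 higher on the log2 scale in endothelial than in mural cells and 7.78 ± 0.41 higher than in astrocytes.

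**Figure D2:**
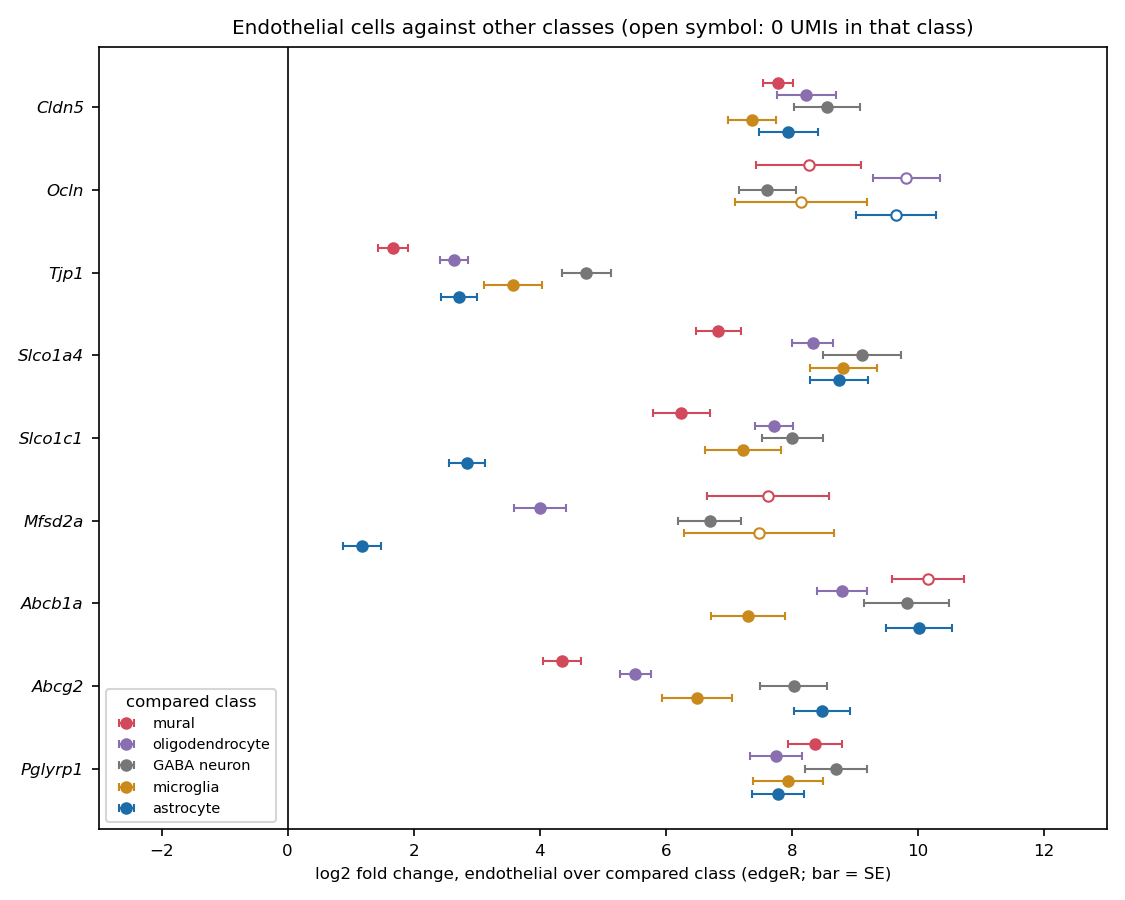
Log2 fold change of each gene, endothelial cells over 5 other classes, from edgeR with the library as block (bars: SE; 3 libraries a class). Open symbols mark classes with 0 UMIs, where the fitted value depends on the prior count and is no bound. Most values lie between 6 and 10; those of Tjp1 lie below 5, and those of Slco1c1 and Mfsd2a against astrocytes lie at 2.84 and 1.19.

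All 9 genes were called higher in endothelial cells than in mural cells, astrocytes, GABA neurons, oligodendrocytes and microglia. Each was higher in 3 of 3 libraries. The background of genes called higher in the endothelial class by the same edgeR rule was 18.8% of 3079 genes tested against mural cells, 24.0% against astrocytes, 28.3% against GABA neurons, 26.0% against oligodendrocytes and 22.6% against microglia. In those comparisons 8, 6, 9, 8 and 9 of the 9 genes passed the count filter only through the endothelial libraries. Their entry into the tests depended on their level there, and the counts are therefore a description. With classes at 0 UMIs set to their bound, the median log2 difference of the 9 genes was 6.24 against mural cells and 7.78 against astrocytes, where the medians over all genes tested were 0.03 and -0.02. These medians are a description as well. Most of the 9 genes passed only through the endothelial libraries, and the median over all genes is set by the scaling. With the other endothelial gate the log2 values against mural cells were lower, from 1.59 for Tjp1 to 4.75 for Pglyrp1, and 8 of 9 genes were called.

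Most endothelial cells carried several of the genes at once. A median of 5 of the 9 genes had a UMI in an endothelial cell (5, 5 and 7 in libraries 1 to 3, of which library 3 was the deepest), 379 of 407 cells (93.1%) had at least 3, 10 cells had all 9, and 2 cells had none. At least 3 of the genes were seen in 2.30% of astrocytes, 0.268% of oligodendrocytes, 0.196% of GABA neurons and 0 of 285 mural cells. Deeper cells showed more of the genes, as the plot of genes per cell shows.

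**Figure D3:**
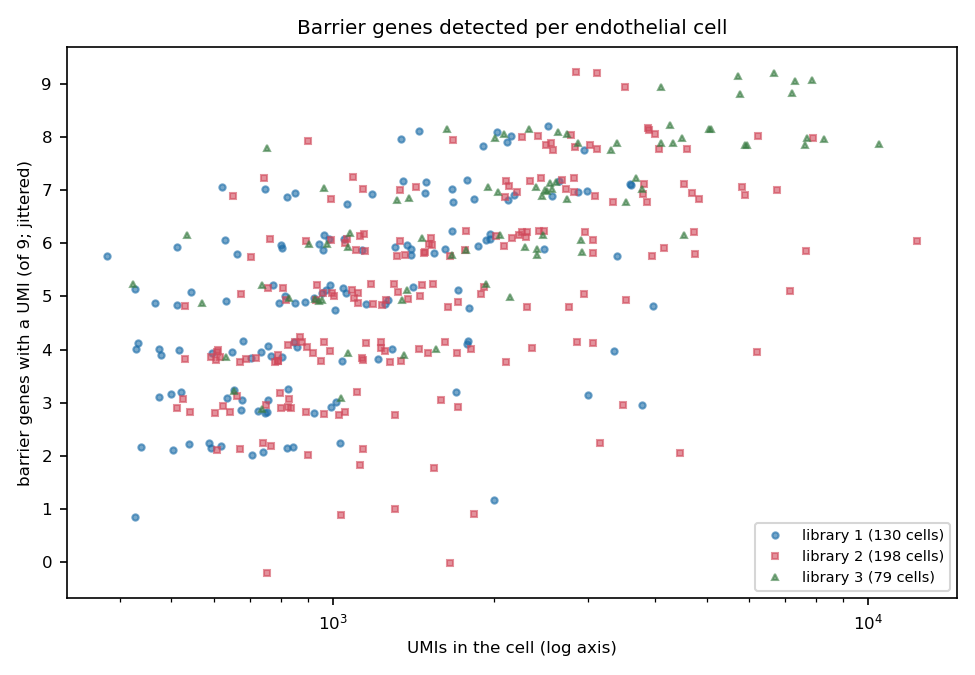
Number of the 9 genes with a UMI in each of the 407 endothelial cells (vertical axis, jittered) against the UMIs of the cell (log axis), by library. Deep cells hold more of the genes: the 10 cells with all 9 lie among the deeper cells.

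Cldn5 had a UMI in 97.5% of endothelial cells and Slco1a4 in 85.5%, while Ocln had one in 30.2% and Mfsd2a in 18.4%. GABA neurons, taken here as a class outside the vessel wall, had a UMI of Cldn5 in 6.98% of cells at a median of 2738.5 UMIs, against 1348 UMIs in endothelial cells. After each cell was thinned to 1000 UMIs, which left 264 endothelial cells and set 143 aside, and left 2942 GABA neurons and set 122 aside, the shares with Cldn5 were 93.2% and 2.82%. For the carriers in astrocytes, 701 cells were kept and 81 set aside. Slco1c1 was seen in 44.7% of endothelial cells, 9.70% of astrocytes and 0.436% of oligodendrocytes, and without thinning in 62.2%, 23.7% and 0.714%. Mfsd2a was seen in 11.7% of endothelial cells, 4.99% of astrocytes and 0.871% of oligodendrocytes, and without thinning in 18.4%, 12.7% and 1.70%. Mfsd2a was not seen in 285 mural cells, which by the floor of 3 counts allows a share of cells with a UMI of up to 1.05%; the upper end of the exact 95% binomial interval is 1.29%.

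**Figure D4:**
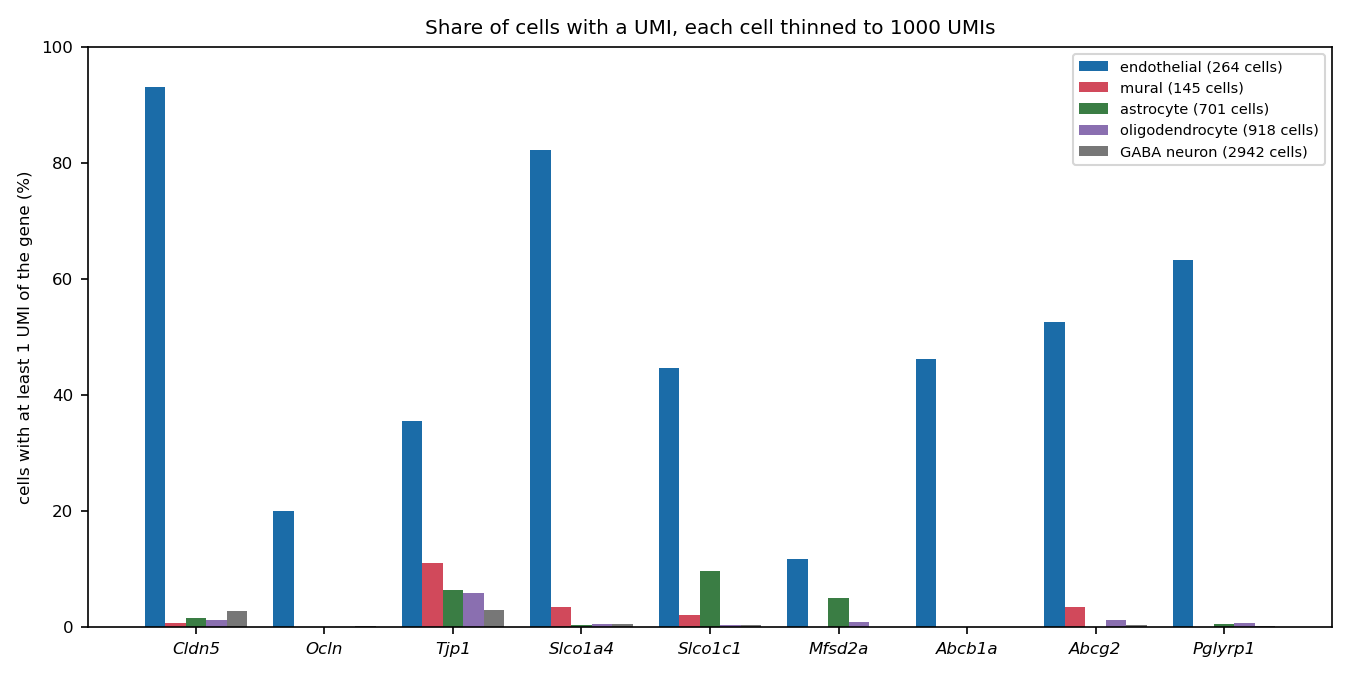
Share of cells with at least 1 UMI of each gene after thinning every cell to 1000 UMIs, for 5 classes (bars from 0; cells pooled over 3 libraries, so no replicate error is drawn). Cldn5 reaches 93.2% in endothelial cells; the astrocyte bars are visible for Tjp1, Slco1c1 and Mfsd2a.

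The genes were also present in cells just outside the gate. The 28 endothelial cells with exactly 3 gate UMIs had 3171 CPM of Cldn5 and 1029 CPM of Slco1a4, and the 34 ungated cells with 2 gate UMIs had 3560 and 957.4 CPM. The ungated cells were shallower, with a median of 655 UMIs against 904.5. The 10 endothelial cells without a Cldn5 UMI had 1628 CPM of Slco1a4 and 1425 CPM of Pglyrp1. These cells passed the gate on other genes and carried other barrier genes, at a median depth of 920 UMIs.

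Along the vessel tree, endothelial cells with a UMI of an arterial panel (Gkn3, Sema3g, Bmx, Vegfc, Efnb2) were compared with those of a venous panel (Slc38a5, Nr2f2, Lcn2), cells with both being left out. There were 20, 36 and 13 arterial and 27, 57 and 33 venous cells in libraries 1 to 3. Of the 9 genes, only Pglyrp1 passed the test. It was at 439.2, 351.0 and 1011 CPM in arterial cells and at 1168, 1108 and 1711 CPM in venous cells, lower in the arterial cells of each library and with no overlap. The log2 difference was -1.35 ± 0.23 (edgeR adjusted p = 0.000447), in a comparison where 6.25% of 1295 genes were called lower and 3.71% higher in arterial cells. The direction held in every alternative run, from -1.68 to -1.03, but the call was lost without library 1 (edgeR adjusted p = 0.191), without library 3 (0.130) and without the library as block (0.286). Arterial cells were shallower than venous cells in libraries 1 and 3 (medians of 887 against 1782 and 1362 against 3308 UMIs) and about as deep in library 2 (2326.5 against 2259), and the part of depth was not tested. Lcn2 is not specific to vessels here, since it reached 567.5 CPM in the astrocytes of library 2. With Lcn2 left out of the panel, the Pglyrp1 difference was -1.32 (edgeR adjusted p = 0.00899). The arterial panel was read in neurons as well. It summed to 77.4, 104.6 and 94.1 CPM in the GABA neurons of libraries 1 to 3. In endothelial cells it summed to 199.9, 535.6 and 306.8 CPM, and the part of this in the comparison was not tested.

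Mfsd2a was at 219.6, 106.4 and 209.1 CPM in arterial cells and at 111.3, 26.2 and 148.4 CPM in venous cells. It was higher in the arterial cells of each library, but the ranges overlapped and the counts were small, with 4, 10 and 6 UMIs in arterial cells and 6, 4 and 19 in venous cells. The difference of 0.97 ± 0.51 did not pass (edgeR adjusted p = 0.287), with an interval of 2 SE from -0.05 to 1.996. Slco1c1 was also higher in the arterial cells of each library (0.34 ± 0.23, edgeR adjusted p = 0.428). Of the other 6 genes, none passed: Cldn5 was higher in the arterial cells of each library, with an interval of 2 SE from -0.19 to 0.42, and 5 differed in direction between libraries.

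**Figure D5:**
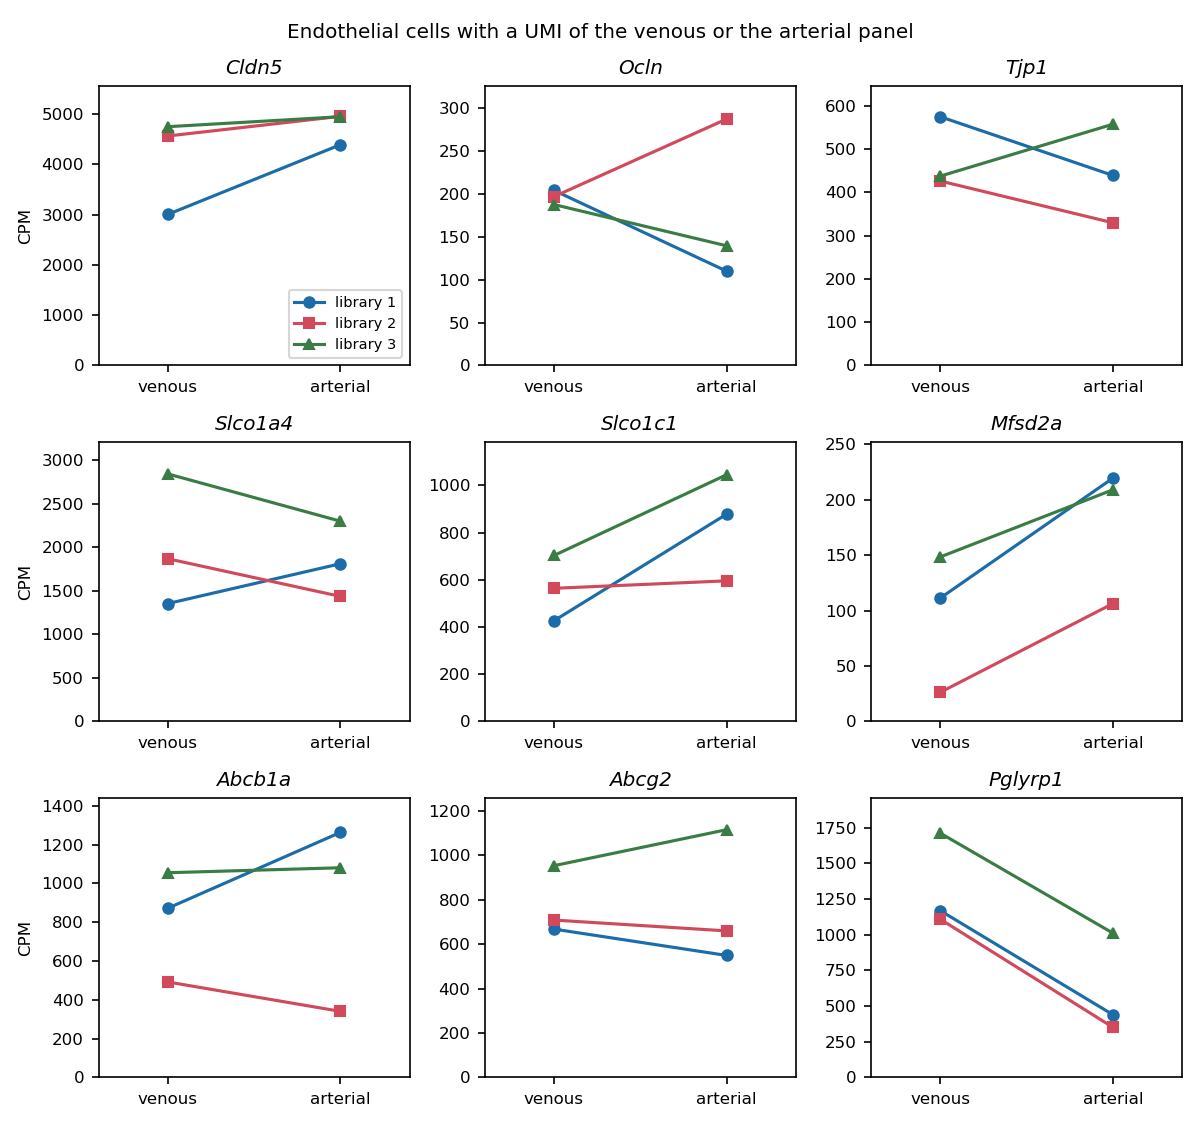
CPM of each of the 9 genes in venous and arterial endothelial cells, lines joining the same library (vertical axes start at 0 and differ between panels). Pglyrp1 falls from venous to arterial cells in all 3 libraries; the lines of Mfsd2a, Slco1c1 and Cldn5 run the other way, and those of the other 5 genes differ in direction.

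Other genes of the barrier, in lists that hold none of the 9, were read in the same fits against astrocytes, where 24.0% of all genes tested were higher and 24.9% lower in endothelial cells. Many genes of these lists passed the filter only through the endothelial libraries, as the 9 did, and their counts are a description. Of 16 further junction genes, 8 could be tested and 7 were higher in endothelial cells, with 5 of the 8 passing only through that class. Esam, an endothelial adhesion molecule, was at 640.8 ± 74.0 CPM, and Cdh5, the cadherin of endothelial adherens junctions, at 383.3 ± 13.2 CPM. Against mural cells, where 18.8% of all genes tested were higher and 15.2% lower, 5 of 7 were higher, with 4 of the 7 passing only through the endothelial class. Ctnna1 was not called. Jam3, which passed only through the mural cells, had a log2 difference of -4.67 ± 0.65. Of 24 further transporters and receptors, 22 were tested and 20 were higher than in astrocytes, with 16 of the 22 passing only through the endothelial class. Slc2a1, the glucose carrier, was at 1314 ± 139 CPM in endothelial cells and 67.8 ± 26.9 CPM in astrocytes, a log2 difference of 4.12 ± 0.30 (edgeR adjusted p = 4.47e-10). Slc6a6, the taurine carrier, was at 848.7 ± 361.2 CPM in endothelial cells. Lrp8, a lipoprotein receptor, was not called (0.82 ± 0.36, edgeR adjusted p = 0.0653). Slc38a3, a glutamine carrier, was lower, at 128.8 ± 41.9 CPM in endothelial cells and 322.8 ± 209.4 CPM in astrocytes, a difference of -1.37 ± 0.30 (edgeR adjusted p = 0.000733). As a description, the median log2 difference was 2.45 over the tested junction genes and 3.47 over the tested transporters and receptors. Over all genes tested it was -0.02, a value set by the scaling.

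Of 20 receptors, effectors and transcription factors of the Wnt pathway and of barrier endothelium, 18 were tested and 16 were higher than in astrocytes, against the 24.0% of all genes. Of the 18, 15 passed only through the endothelial class, and Tspan12 and Tnfrsf19, which passed in both, were not called. Foxq1 and Sox17, both transcription factors, were the highest in endothelial cells, at 409.1 ± 128.7 and 369.8 ± 173.5 CPM. Against mural cells 8 of 13 were higher (18.8% of all genes) and 5 were not called, with 11 of the 13 passing only through the endothelial class. The Wnt ligands lay on the other side. Wnt7a, which acts on brain endothelium, was at 46.7 ± 7.1 CPM in astrocytes with 0 UMIs in endothelial cells, and Wnt7b was at 120.7 ± 47.7 CPM in astrocytes and 2.87 ± 3.04 CPM in endothelial cells (-5.51 ± 0.58 on the log2 scale). Ndp, the ligand norrin, was lower in endothelial cells as well. These 3 were the tested genes of a list of 9 ligands and partners, and each passed only through the astrocytes. Of 7 genes of vesicle transport and leakage, 5 were tested and Sdpr, Cav1 and Ptrf, all caveolar proteins, were higher than in astrocytes (24.0% of all genes). These 3 passed only through the endothelial class, and Cav2 and Aplp2, which passed in both, were not called. Plvap, a protein of leaky capillaries, was at 3.4 ± 5.9 CPM in endothelial cells. Of 7 leukocyte adhesion genes, 4 were tested. Icam2 and Ackr1, which passed only through the endothelial class, were higher than in astrocytes, and Vcam1 and Icam1, which passed in both, were not called. Ackr1 varied from 60.5 to 629.6 CPM between endothelial libraries.

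Across 27 sums of 9 classes and 3 libraries, the genes whose log2(CPM + 10) followed each barrier gene most closely were mostly other genes high in endothelial cells. Egfl7, Tmem252 and Podxl were the nearest to Cldn5 (Pearson r of 0.95 each), and Cyyr1, Paqr5 and Adgrf5 to Slco1a4 (0.98 to 0.99). AU021092 was among the nearest 3 for Ocln, Abcb1a and Pglyrp1. The genes nearest to Tjp1 (4931406P16Rik, Il6st and Ccser2) reached 0.85 to 0.86, and those nearest to Mfsd2a (Usp53, Nhsl1 and Fmo1) reached 0.86 to 0.88. Mcc, Galnt15 and Vwa1 were nearest to Slco1c1 (0.92 to 0.94), and Clec14a, Adgrf5 and Adgrl4 to Abcg2 (0.92 to 0.95). The sums share libraries and the split between endothelial and other classes, so these values describe the pattern and carry no test.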

How the data were processed

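Single-cell RNA was measured in 3 libraries of 1 group. The authors deposited 1 pooled matrix of UMI counts, whole numbers for each gene in each cell, written by Cell Ranger 3.0.0 per the file headers, and mm10 is named in the submitters' processing notes. The annotation, the cell-calling rule and any thinning at pooling are not given in the sources used here. Libraries were separated by the number at the end of each barcode, which is only a name. Of the features, 27998 are mouse genes and 3 are constructs.

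A cell needed 300 genes and no more than 20% of its UMIs from mitochondrial genes (10291 of 11625 cells passed). Scrublet, run in scanpy 1.11.5 at an expected rate of 0.06, set thresholds that marked 76 cells as doublets, only 2 of them in library 2, so the highest scores were removed at 0.8% per 1000 cells (368 cells). Cells were classed by marker gates of 3 UMIs, and the other endothelial gate took 2 UMIs. The gate planned for T cells lacked 1 of its 3 genes and is named by the other genes. Cells are not replicates, so the UMIs of a class were added up within each library where it had at least 10 cells (levels are given for smaller sums too), and CPM were computed from these sums. The test was edgeR's quasi-likelihood F test (edgeR 4.0.16, R 4.3.3; TMM scaling, filterByExpr, robust = TRUE, legacy = FALSE, library as block), with Benjamini-Hochberg adjustment over all genes tested and a threshold of 0.05. The library pairs the sums, because each holds cells of both classes compared. The SE was taken from the log2 value and F, as log2/sqrt(F), and intervals are 2 SE. The fits were tested on simulated counts of 3178 genes (endothelial against mural), where 100% of genes raised by 3 on the log2 scale, 97.4% of those lowered by 3, 29.0% of those raised by 1 and 9.09% of those lowered by 1 were recovered, and 0 of 3028 unchanged genes were called. The simulation gave every gene the same spread and let libraries differ in depth only, so these rates need not hold for the real counts.

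The vessel panels were planned at 2 UMIs. Only library 2 then had 10 cells in both arms, so 1 UMI, which had been listed as the other setting, was used. Floors are 3 counts over a class (or 3 cells, for a share of 0), shares have exact binomial 95% intervals, and both cover counting error only. The 9 genes, the lists and the rules were chosen with earlier results of these data known. Named genes are the 9, the 2 highest of each list in endothelial cells, up to 2 of each list called lower than in astrocytes, and the 3 genes most alike in pattern; genes named beside a count of 5 or fewer, and Plvap, were chosen after their values were seen. Some genes of the lists are not reported here. Alternatives were DESeq2 1.42.0, RLE scaling, no filter, the default prior, no block, each library left out, other gates, only cells of at least 1000 UMIs, no doublet removal and 1 fit over all classes; leaving Lcn2 out of the venous panel and comparing astrocytes with oligodendrocytes were added after seeing the data.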

Additional observations from a re-analysis of the deposited data

How the results depend on the processing

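Over 675 alternatives of the 9 genes in the 5 endothelial comparisons, 673 kept the direction and the call, 2 kept the direction and lost the call (Cldn5 against mural cells with the other endothelial gate and Mfsd2a against microglia without library 3), and 0 reversed. The count of 9 of 9 genes was the same without the replicate block. These counts are a description, as above. Against mural cells, astrocytes, GABA neurons, oligodendrocytes and microglia, 8, 6, 9, 8 and 9 genes passed the filter only through the endothelial libraries. Between arterial and venous cells the count of 1 gene called was 0 with no replicate block, where Pglyrp1 was at -1.27, and ranged from 0 to 1 when libraries were left out (0 without library 1 or library 3). Over all genes that comparison called 129 genes in the fit reported, 54 with DESeq2, 41 with no low-count filter, 18 with no replicate block, and 10, 93 and 0 without libraries 1, 2 and 3; the cause was not tested. Signs of values that passed no threshold turned in 5 cases: Cldn5 between astrocytes and oligodendrocytes with a gate of 2 UMIs (-0.041), and between arterial and venous cells Cldn5 (-0.16) and Ocln (-0.095) with no low-count filter, Ocln with no replicate block (-0.066) and Abcb1a without library 2 (0.17, and down to -0.32 without another library). Scaling by RLE moved the median of all genes against GABA neurons from -0.01 to -0.15 and against microglia from 0.10 to 0.24. Only 2 libraries were left for microglia at a gate of 5 UMIs, and for mural cells and microglia with cells of at least 1000 UMIs. Depth limits the rare classes most, and 3 libraries in 1 group allow no comparison of conditions.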

Other observations

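Platelet markers summed to 72.7, 20.3 and 12.96 CPM in the endothelial cells of libraries 1 to 3. Over the 1295 genes tested between arterial and venous cells, 3.71% were called higher and 6.25% lower in arterial cells. Sox17 and Sox18 were called higher in arterial cells, but both passed the low-count filter only through those cells, so their calls are a description. Nkd1, an inhibitor of Wnt signalling, was called lower and passed the filter through neither class alone. Slc6a6 was called higher and Slc16a1 and Slc7a5 lower, and all of these passed in both classes. These genes were named after their values were seen, in a comparison whose calls depended on the libraries included.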
